A study of Homo sapiens with 2 samples.

Results

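The DUSP and PTPN genes encode the dual-specificity phosphatases and the non-receptor protein tyrosine phosphatases. They were taken by name from the deposited window table: every gene whose name is DUSP or PTPN followed only by a number. The rule gave 40 of 47352 gene names, 24 DUSP and 16 PTPN. The series maps N6-methyladenosine (m6A), a methylated adenosine of messenger and other RNAs, in GM12878, an Epstein-Barr virus-transformed human lymphoblastoid B cell line. It holds 1 immunoprecipitated (IP) library, made from RNA fragments bound by an m6A antibody, and 1 input library of the unselected fragments. No treatment is named for either library, and both come from total RNA of this single cell line, sequenced by a protocol that keeps the strand. One source field reads mouse embryonic stem cells, which goes against the human organism and the GM12878 cell line given in the other fields.

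Both families remove phosphate through a catalytic cysteine. PTPN enzymes act on phosphotyrosine, and dual-specificity enzymes can also act on phosphoserine and phosphothreonine. A subset of DUSP enzymes, the MAP kinase phosphatases, bind ERK, JNK or p38 and strip the threonine and tyrosine phosphates that activate them; several are switched on by the same kinases and so form a negative feedback loop. In B cells, PTPN6 (SHP-1) is recruited by inhibitory receptors such as CD22 and damps signalling from the antigen receptor. m6A in mRNA is typically found around stop codons, in 3′ untranslated regions and in long internal exons, and is known to shorten the life of many transcripts.

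Exons are cut in the table into overlapping windows, 100 nt wide with starts 50 nt apart, and each window has its scaled read coverage in both libraries. A gene can have several transcript listings. The listing with most windows was kept for each gene. A gene is called measured here when its mean scaled input coverage is at least 1, which 10756 genes met. The window score is the log2 ratio of IP to input at a window, each divided by its own gene median, with 1 added to every value. A score of 2 is a 4-fold enrichment over the gene's own level, and a run of at least 2 consecutive windows at 2 or more is called an enriched region. Of the 1983959 windows on kept listings, 52318 (2.64%) reached a score of 2. The gene-level score is the highest mean score of 2 consecutive windows. Each group has 1 library, so no difference between IP and input has a replicate check and no p-value is given. Intervals cover counting error only.

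Coverage on the kept listings corresponded to 58.5 M reads of 36 nt in the IP and 51.7 M in the input. The B cell markers CD74, CD79A, MS4A1, CD79B and PAX5 were measured, with mean input coverage between 14.3 and 775. Of 5 T cell markers only CD3E was measured (1.52), of 5 myeloid markers only ITGAM (1.12), and none of 5 pluripotency markers (0 of 5, SOX2 at 0.153). Windows carry no genome coordinates, so positions are given by exon and window. Exons are numbered along the genome rather than along the transcript: the last-numbered exon was the longer terminal one in 91.2% of 3427 measured genes on the plus strand, and the first-numbered exon in 90.5% of 3187 on the minus strand. Strand was matched for 20 of the 24 measured members, whose 3′ exon is therefore known. For DUSP4, DUSP5, DUSP12 and PTPN11 the longer terminal exon is named instead.

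Of the 40 members, 24 were measured. Mean coverage per base does not grow with transcript length, but it depends on which exons the kept listing holds. In the input it was highest for PTPN6, the SH2-domain phosphatase of blood cells, at 25.2 in the IP and 28.6 in the input. DUSP2 (PAC-1), a nuclear MAP kinase phosphatase first described in activated T cells, followed with 18.4 in the IP and 15.9 in the input. PTPN1 (PTP1B), which dephosphorylates the insulin receptor and JAK kinases, had 15.8 and 14.8. DUSP22, an atypical enzyme that acts on the kinase LCK, had 18.1 and 13.2. PTPN7 (HePTP), a blood-cell phosphatase that binds ERK and p38, had 46.3 in the IP and 11.2 in the input. These abundant members thus include PTPN6 and PTPN7, which are largely restricted to blood cells. In a pool of RNA from many cells, a lower level in each cell and fewer cells with the transcript cannot be told apart.

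Members of the same functional group differed widely in input. Among the nuclear, inducible MAP kinase phosphatases, DUSP2, DUSP5 and DUSP4 had input means of 15.9, 10.9 and 9.27, while DUSP1 (MKP-1) stood at 0.633, below the minimum. Of the cytoplasmic ERK phosphatases, DUSP7 had an input of 3.55, while DUSP6 (MKP-3) stood at 0.0154 and DUSP9 at 0.00507. Among those selective for JNK and p38, DUSP10 (MKP-5) had 6.85, DUSP16 (MKP-7) 4.36 and DUSP8 0.0747. The FERM-domain phosphatase PTPN13 was measured at 3.73, but its relatives PTPN4, PTPN14, PTPN3 and PTPN21 ranged from 0.342 down to 0.000973. No input read was listed for DUSP21 or DUSP26 (0 in both). A count of 0 still allows up to 3 reads, which is a mean coverage of 0.0206 for DUSP21 and 0.0106 for DUSP26. The lowest measured member was DUSP18, a mitochondria-associated atypical enzyme, at 1.001.

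**Figure D1:**
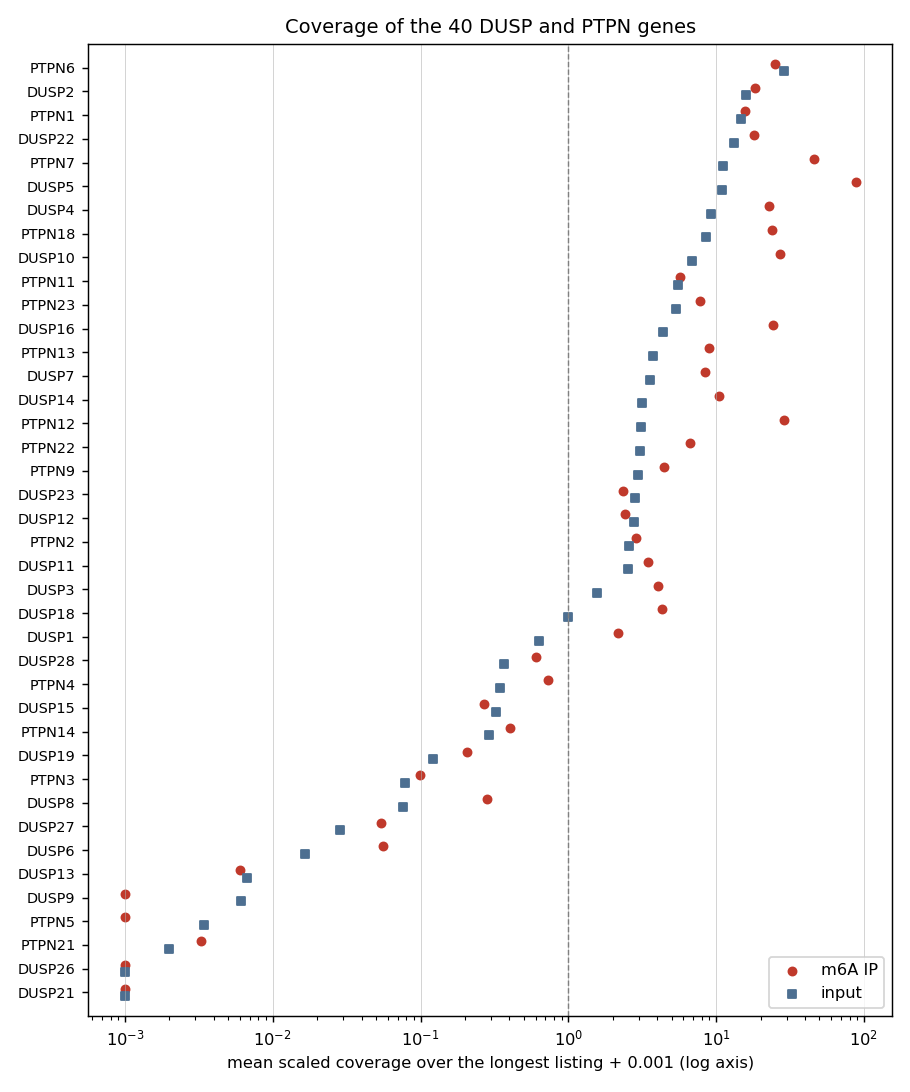
Mean scaled coverage (log axis, with 0.001 added) of the 40 DUSP and PTPN genes in the m6A IP (red circles) and the input (blue squares), 1 library each, ordered by input. The dashed line marks the input minimum of 1; PTPN6 is highest in the input and DUSP5 is highest in the IP.

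Enriched regions were found in 14 of the 24 measured members (58.3%, 95% exact interval 36.6 to 77.9), 7 of 13 DUSP and 7 of 11 PTPN genes, and in 44.2% of all measured genes. The interval for the members includes the share over all measured genes. The median gene-level score was 2.37 for the members and 1.81 for all measured genes, and members ranged from 0.59 in DUSP12 to 5.57 in PTPN12. More than 1 region was found in 3 members, DUSP16, PTPN7 and PTPN13, beside 15.9% of all measured genes. Over all measured genes, regions were more frequent on longer transcripts, and among the members 9 of the 14 lay on listings of 80 or more windows. Of members with up to 39 windows 2 of 6 had a region (15.9% of all measured genes of that size), of those with 40 to 59 windows 2 of 4 (42%) and of those with 60 to 79 windows 1 of 4 (55.4%). At 80 to 119 windows the count was 5 of 6 (66.4%), and at 120 or more windows it was 4 of 4 (78.3%). Across the 24 members, gene-level score and number of windows had a Spearman correlation of 0.65, and across all measured genes one of 0.60. All points share the same pair of libraries. The score is a maximum over window pairs and any qualifying run makes a region, so both can rise with window number by construction.

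**Figure D2:**
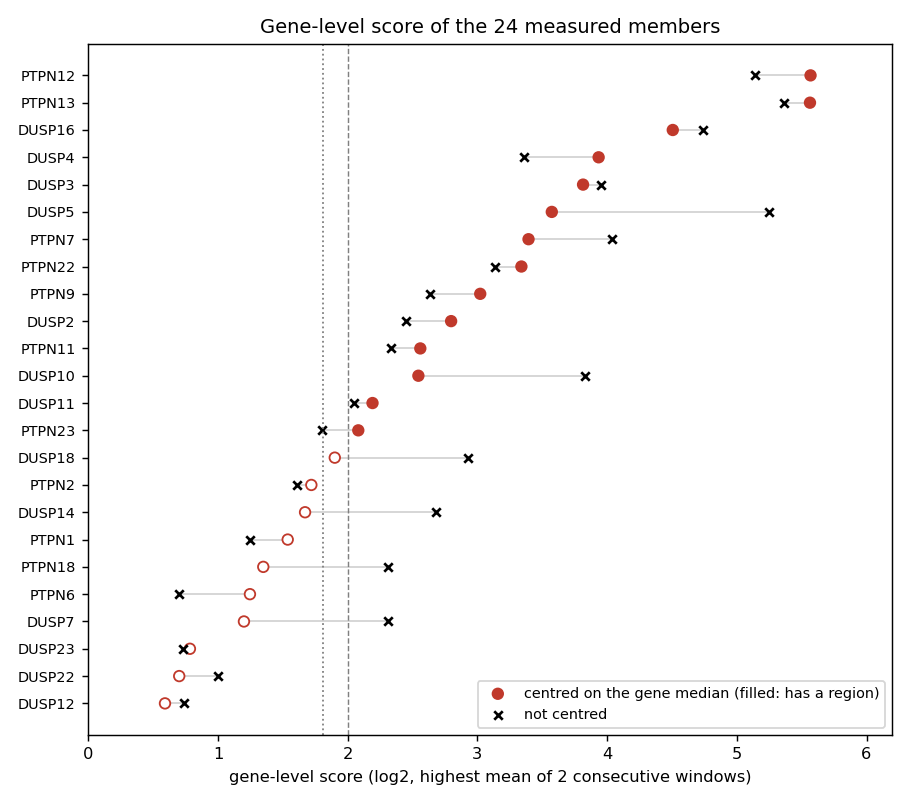
Gene-level score (log2, x axis) of the 24 measured members, centred on the gene median (circles, filled where an enriched region was found) and not centred (crosses). The dashed line is the score threshold of 2 and the dotted line the median of all measured genes, 1.81; PTPN12 and PTPN13 lead, and DUSP5, DUSP10, DUSP18, DUSP14, DUSP7 and PTPN18 stand more than 0.9 higher without centring.

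The MAP kinase phosphatases carried regions in 5 of their 6 measured members, DUSP2, DUSP4, DUSP5, DUSP10 and DUSP16, with a median gene-level score of 3.19. The exception was DUSP7. With 6 genes the exact 95% interval of the share runs from 35.9% to 99.6%, which includes the 44.2% of all measured genes.

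DUSP5, a nuclear phosphatase selective for ERK, had the highest IP coverage of all members. It averaged 88.3 in the IP, against 10.9 in the input, and its gene-wide log2 ratio (IP mean over input mean, 1 added to each) of 2.90 was above that of 97.8% of measured genes. Its single region covered 5 windows of the longer terminal exon, number 4, which has 31 windows. The window with the highest score, 550 nt from the inner edge of that exon, had 841 in the IP and 20.7 in the input, a ratio of 40.6 (36.4 to 45.4). The next window reached 1161 in the IP and 30.1 in the input. These 5 of 52 windows held 65.2% of the gene's IP coverage and 16.05% of its input coverage. Exon 1, at the opposite end, lay far below the gene's own level, with a score of -3.06 at its lowest window, at 0.180 in the IP against 2.08 in the input. Because the score is divided by a gene median that is itself high in the IP (28.4, against 8.21 in the input), DUSP5 scored 3.57 with centring and 5.25 without it.

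DUSP4 (MKP-2), a nuclear phosphatase of ERK and JNK, had 1 region of 6 windows in its longer terminal exon of 87 windows, number 1. The peak had 375 in the IP and 32.5 in the input, a ratio of 11.5 (10.5 to 12.7), 500 nt from the inner edge. The region made up 4.58% of windows, with 54.1% of the IP coverage and 14.9% of the input coverage. Its internal exon 4, of 15 windows, had no region; coverage there averaged 1.97 in the IP and 0.779 in the input.

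DUSP2 had a shorter region of 2 windows in its 3′ exon, where the peak stood 300 nt from the inner edge. The peak had 126 in the IP and 21.3 in the input, a ratio of 5.93 (5.27 to 6.70). Those 2 of 36 windows held 36.4% of the IP coverage and 7.44% of the input coverage, and scores elsewhere on the transcript went down to -1.01.

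DUSP16, the JNK-selective MKP-7, had 4 regions, the most of any member, covering 27 of its 129 windows. Of these, 3 lay in its 3′ exon of 95 windows, about 4800 nt long. Going outward from the inner edge of that exon, they peaked at 200 nt with 142 in the IP and 7.35 in the input, at 600 nt with 246 and 7.12, and at 1050 nt with 63.7 and 6.99. The fourth lay in internal exon 6, of 12 windows, and peaked at 144 in the IP and 7.70 in the input, a ratio of 18.6 (15.5 to 22.5). Input was nearly level across the 4 peaks, so the differences in ratio between them come from the IP values. Together the regions held 83.3% of the IP coverage of DUSP16 and 35.4% of its input coverage.

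In DUSP10, a phosphatase of JNK and p38, IP coverage stood above the input along most of the transcript. Internal exon 3, of 18 windows, averaged 47.8 in the IP and 9.54 in the input, and the 3′ exon, of 26 windows, 14.7 and 4.52. Only 2 windows near one edge passed the threshold, with a peak of 72.3 in the IP and 3.47 in the input (ratio 20.8, 15.9 to 28.0), where the input was below the exon's mean. The region held 10.4% of the IP coverage and 2.45% of the input coverage. The call for DUSP10 was lost when the gene median was taken over the kept listing alone, with a gene-level score of 2.07 against 2.54, and without centring it rose to 3.83 with 3 regions. A gene median higher in the IP than in the input was also seen in DUSP5 (28.4 against 8.21), DUSP7 and DUSP16, while DUSP2 and DUSP4 had a lower one.

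DUSP7, the measured cytoplasmic ERK phosphatase, had no region and a gene-level score of 1.20. Its highest-scoring window had 26.7 in the IP and 4.30 in the input. Its gene-wide log2 ratio was nevertheless 1.05, above that of 70.6% of measured genes, and without centring the score was 2.31 with 2 regions.

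**Figure D3:**
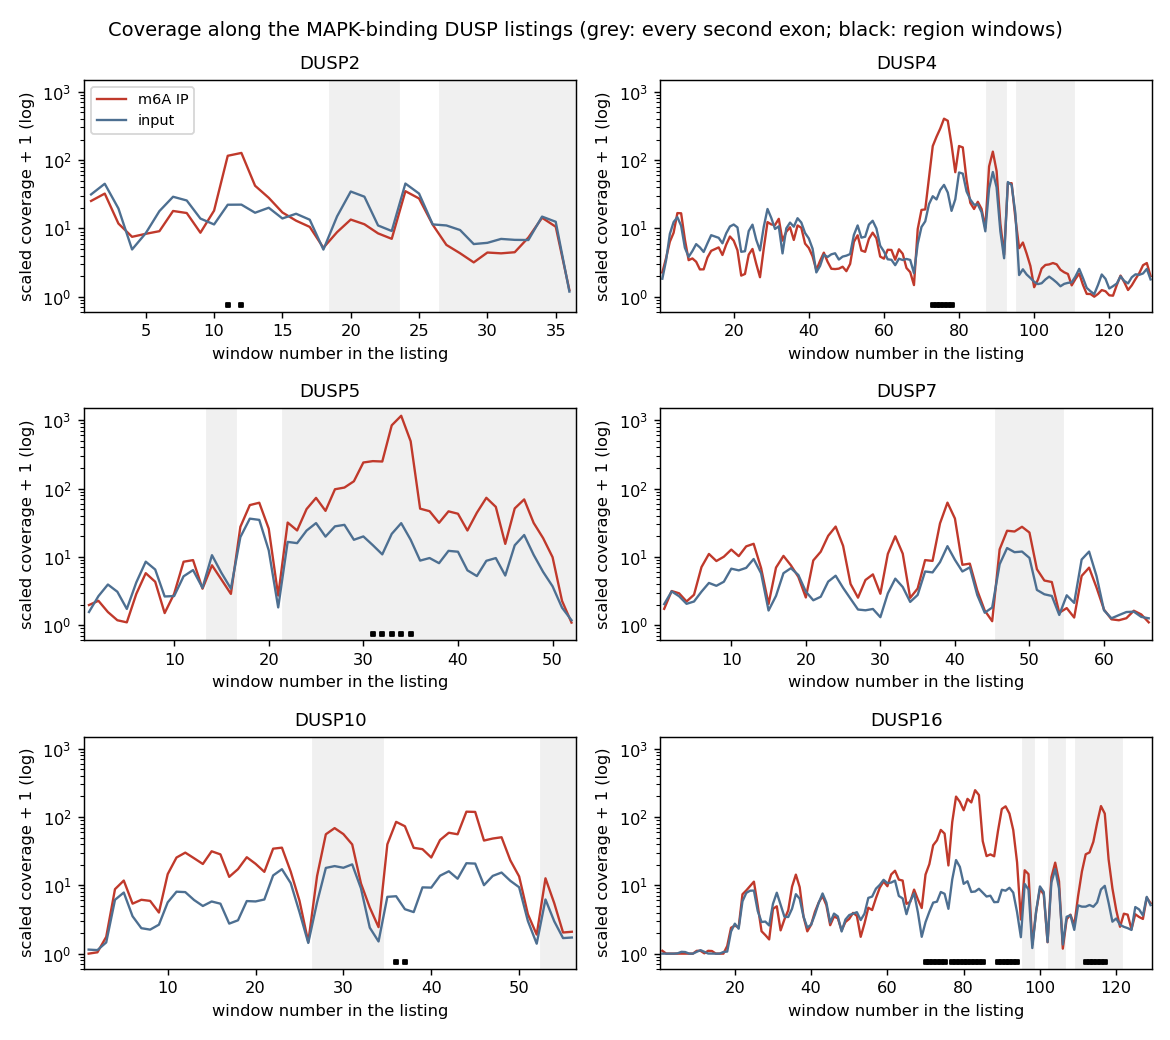
Scaled coverage plus 1 (log axis) in the m6A IP (red) and the input (blue) by window along the kept listing of 6 MAP kinase phosphatase genes, 1 library each; black squares mark region windows and grey bands every second exon. IP peaks stand above the input in DUSP4, DUSP5 and DUSP16 and a narrow one in DUSP2. In DUSP10 and DUSP7 the IP lies above the input over most windows, and in DUSP5 the gene median is also higher in the IP.

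Among the atypical DUSP genes, which lack the domain that docks MAP kinases, 2 of 7 measured members had a region (28.6%, exact 95% interval 3.67 to 71.0, which includes the 44.2% of all measured genes). DUSP3 (VHR), a small phosphatase of ERK and JNK, scored 3.81 with a region of 4 windows in its 3′ exon, 1400 nt from the inner edge. The peak had 57.0 in the IP and 2.36 in the input, a ratio of 24.1 (17.5 to 34.7) that rests on about 38 input reads. DUSP11 (PIR1), which removes phosphates from RNA 5′ ends, scored 2.19 in a region of 3 windows, with 17.9 in the IP and 3.28 in the input at the peak. Its call was lost with 5 added in place of 1 (score 1.38) and without centring (no region, score 2.05). DUSP18 scored 1.90, with 16.5 and 1.13 at its highest window, and DUSP14, which acts on MAP kinase signalling in T cells, scored 1.67 with 32.4 and 3.82. Both had regions without centring, DUSP18 with a score of 2.92 and DUSP14 with 2.68. DUSP23, DUSP22 and DUSP12 scored 0.78, 0.70 and 0.59, and no setting that was run gave them a score of 2. Their transcripts were short, with 15, 33 and 28 windows.

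The PEST group of PTPN genes, cytosolic phosphatases with a proline-rich tail, was split. PTPN12 (PTP-PEST), a regulator of adhesion and lymphocyte signalling, had the highest gene-level score of all members, 5.57, above 98.7% of measured genes. Its region was a single run of 17 windows, about 900 nt, that filled most of internal exon 13 of 20 windows. That exon averaged 101 in the IP and 6.74 in the input, and the peak had 362 in the IP and 7.77 in the input, a ratio of 46.6 (39.0 to 56.1). The run held 92.7% of the IP coverage of PTPN12 (92.2 to 93.2) and 50.1% of its input coverage (47.7 to 52.4). The longer terminal exon, of 18 windows, had no region, with a mean of 1.304 in the IP and 1.66 in the input.

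PTPN22 (LYP), a lymphocyte phosphatase that restrains antigen receptor signalling together with the kinase CSK, had the same arrangement on a smaller scale. A region of 5 windows lay in internal exon 9, of 17 windows, and peaked at 83.5 in the IP and 8.10 in the input (ratio 10.3, 8.60 to 12.5). It held 48.4% of the IP coverage and 13.9% of the input coverage. The 3′ exon of 24 windows averaged 1.26 in the IP and 2.12 in the input and had no region.

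PTPN18, the remaining member of the group, has no internal exon over 10 windows and had no region. Nearly all its coverage lay in the 3′ exon of 46 windows, with a mean of 41.1 in the IP and 14.3 in the input. Its gene-level score was 1.35 with centring and 2.31 without it.

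PTPN13, a very large FERM and PDZ domain phosphatase, scored 5.56 and also carried its regions in internal exons. The stronger, of 8 windows, lay in exon 7 of 48, where the peak had 237 in the IP and 4.70 in the input, a ratio of 50.5 (40.3 to 64.5). The weaker, of 3 windows, lay in exon 24, with 95.2 in the IP and 15.9 in the input (ratio 5.99, 5.22 to 6.89). Together they took 5.64% of windows, 63.8% of the IP coverage and 10.2% of the input coverage.

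Regions in the 3′ exon were found in PTPN7, PTPN9 and PTPN23. PTPN7 had 3 of them, all in its 3′ exon of 34 windows, with peaks 400, 800 and 1400 nt from the inner edge. The middle one was the strongest, at 196 in the IP and 7.82 in the input (ratio 25.0, 20.9 to 30.1). The outermost had 190 and 14.8, and the innermost 108 and 9.89. The exon averaged 98.5 in the IP and 16.2 in the input. PTPN9 (MEG2), which acts on secretory vesicles, had a region of 3 windows 250 nt from the inner edge, with 47.0 in the IP and 6.68 in the input. PTPN23 (HD-PTP), which sorts receptors in endosomes, passed narrowly at 2.08, with 46.9 in the IP and 12.7 in the input at the peak, and its call was lost with 5 added in place of 1 (1.65) and without centring (1.80). Its internal exon 20 is the longest internal exon among the members, with 36 windows, and had no region: the highest score there was 1.51, at 24.8 in the IP and 10.001 in the input.

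The SH2-domain pair differed in score. PTPN11 (SHP-2), which promotes RAS and ERK signalling, scored 2.56 in a region of 2 windows at the start of its longer terminal exon, 50 nt from the inner edge. The peak had 47.6 in the IP and 8.31 in the input, and 12.8% of the IP coverage of PTPN11 lay in the region, against 2.41% of its input coverage. PTPN6 scored 1.25 and had no region, although its input coverage was the deepest of all members, with the equivalent of 7025 reads in the IP and 12540 in the input. Its highest score fell in a 3′ exon of only 4 windows, at 122 in the IP and 73.3 in the input (ratio 1.66, 1.53 to 1.80). PTPN1 and PTPN2 (TCPTP), the JAK and insulin receptor phosphatases, had no region either, with scores of 1.54 and 1.72. At their highest windows PTPN1 had 55.1 in the IP and 21.2 in the input, and PTPN2 had 11.2 and 2.95. Pseudogenes can take reads from some members: RefSeq lists 5 named for PTPN11, 2 for PTPN2, 2 for DUSP5, 1 for DUSP12 and, below the input minimum, 3 for DUSP8.

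**Figure D4:**
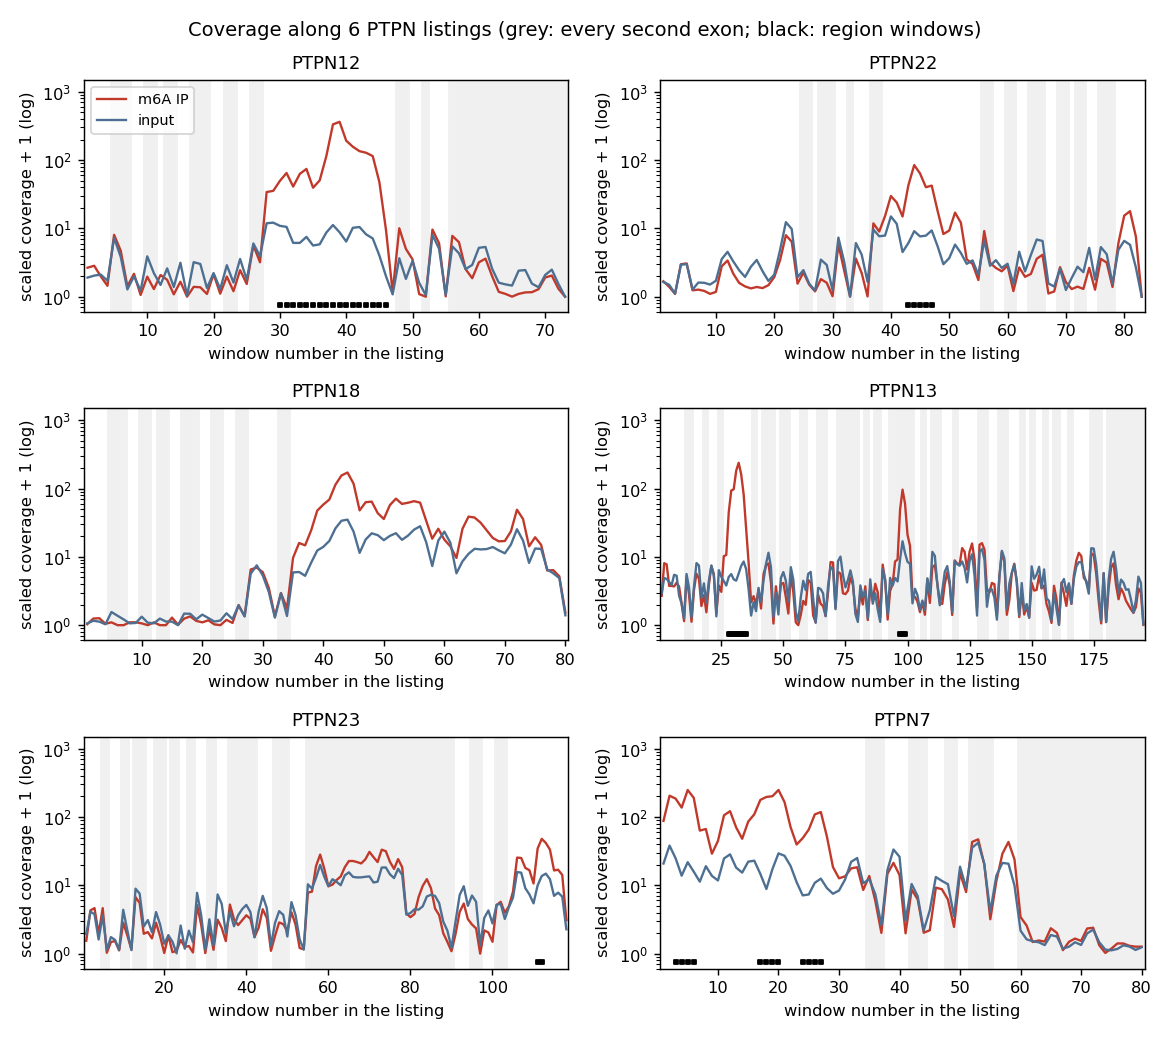
Scaled coverage plus 1 (log axis) in the m6A IP (red) and the input (blue) by window along the kept listing of 6 PTPN genes, 1 library each; black squares mark region windows and grey bands every second exon. The IP peaks of PTPN12, PTPN22 and PTPN13 lie in internal exons, those of PTPN7 and PTPN23 in a terminal exon, and PTPN18 shows a raised terminal exon without a region.

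Among the 16 members below the input minimum, PTPN4, a FERM-domain phosphatase, was the only one with a region; 5.17% of all genes below that minimum had one. Its 7 windows lay near the inner edge of a 3′ exon of 159 windows and peaked at 20.6 in the IP and 0.536 in the input. The ratio of 38.4 has an interval of 19.2 to 82.5, since it rests on about 9 input reads. Those 7 of 242 windows held 58.4% of the IP coverage of PTPN4 and 4.78% of its input coverage. DUSP1, the best known immediate early MAP kinase phosphatase, had means of 2.16 in the IP and 0.633 in the input and a gene-level score of 1.95; without centring it scored 2.28 and had 2 regions. The JNK phosphatase DUSP8 and the FERM-domain PTPN14 scored 1.72 and 1.68, with input means of 0.0747 and 0.291. The remaining 12 members below the minimum, DUSP28, DUSP15, DUSP19, DUSP27, DUSP6, DUSP13, DUSP9, DUSP21, DUSP26, PTPN3, PTPN5 and PTPN21, had input means of 0.368 or less and scores of 1.49 or less.

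Internal exons with more windows held region windows more often. More windows give more places for a qualifying run, so this share can rise by construction. Of the 7 internal exons with at least 11 windows in measured members, 5 held region windows, those of DUSP10, DUSP16, PTPN12, PTPN13 and PTPN22, beside 63.7% of such exons in all measured genes. The exceptions were exon 4 of DUSP4 and exon 20 of PTPN23. Of 10 internal exons with 6 to 10 windows, 1 held region windows, exon 24 of PTPN13 (9.03% in all measured genes). Of 197 internal exons with up to 5 windows none did (0 of 197, and 0.0736% in all measured genes). Longer terminal exons of at least 11 windows held region windows in 10 of 21 cases, beside 47.4% in all measured genes, and shorter terminal exons in 0 of 24, beside 3.79%. These shares were near those of all measured genes. The highest region peaked in the longer terminal exon in 10 of the 14 members (72.5% of all measured genes with a region) and in an internal exon in 4, DUSP10, PTPN12, PTPN13 and PTPN22 (19%).

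How much of a transcript's IP coverage fell inside its regions ranged from 8.77% in PTPN23 to 92.7% in PTPN12, and the input share from 2.41% in PTPN11 to 50.1% in PTPN12. Since region windows were picked by their score, a higher IP share is built in, and the values describe only how concentrated the signal was. More than 50% of the IP coverage lay in regions in 6 members, PTPN12, DUSP16, DUSP5, PTPN13, DUSP4 and PTPN7. The median of the gene-wide log2 ratios (IP over input) stood at 0.95 for the 24 members and 0.35 for all measured genes, the authors' scaling of the libraries being unstated. It was highest in DUSP5 and PTPN12 (2.90 and 2.87) and lowest in DUSP23, PTPN6 and DUSP12 (-0.18, -0.18 and -0.14).

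**Figure D5:**
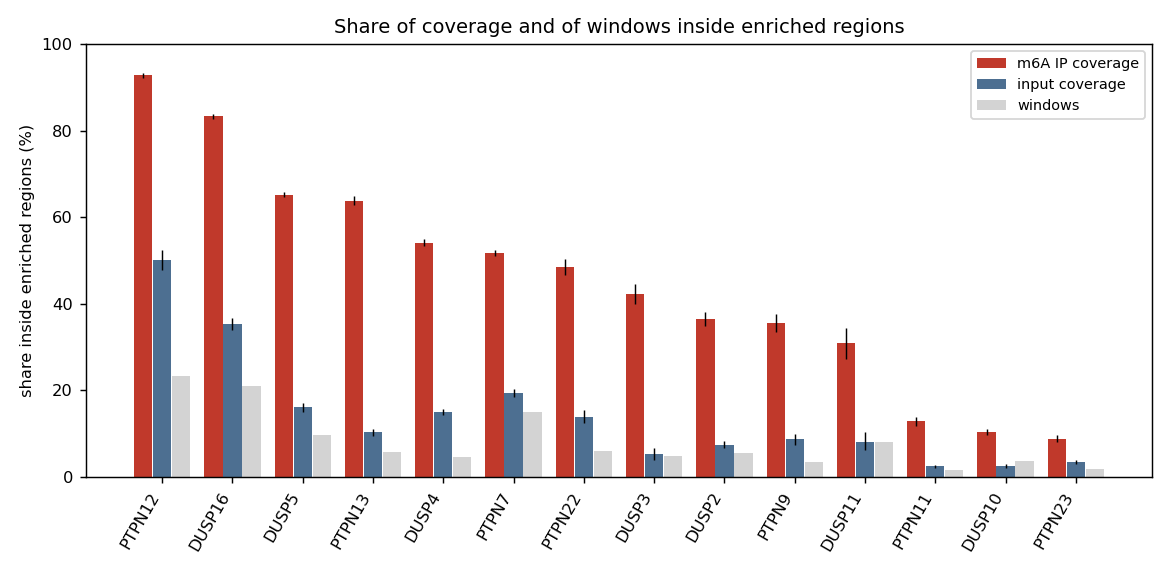
Share (percent) of the IP coverage (red), of the input coverage (blue) and of windows (grey) that lies inside enriched regions, for the 14 measured members with a region, 1 library each; bars start at 0 and black lines are 95% exact binomial intervals from read equivalents. PTPN12 has the highest IP share, 92.7%, and PTPN23 the lowest, 8.77%.

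The kinases that DUSP enzymes act on, and their activators, had a region in 10 of 17 measured genes, with a median score of 2.33. MAPK6 and MAPK11 were highest at 4.69 and 4.52, and MAPK8 (JNK1) lowest at 1.21. ERK feedback and output genes had 4 of 5, led by SPRED2, an inhibitor of the ERK pathway (4.64), and EGR1 (3.76), with ETV4 lowest at 0.81. Proteins that dock PTPN6 and PTPN11 had a region in 7 of 7 measured genes, with a median of 4.16. SIRPA and LILRB1 were highest (5.23 and 5.21), and PDCD1, the receptor PD-1, lowest at 2.76. Kinases, STAT factors and adaptors regulated by PTPN enzymes had 11 of 18, with INSR at 4.80, SYK at 4.62 and BLNK at 0.91. Of the other phosphatase families, receptor-type tyrosine phosphatases had 4 of 4 measured, with PTPRJ at 3.98, PTPRC (CD45) at 2.33 and PTPRA at 2.19. Other cysteine-based phosphatases had 9 of 19, with CDC25A at 6.40, SSH2 at 5.55 and ACP1 at 0.70. All these counts stand beside the 44.2% of all measured genes, and differences between lists were not tested. The lists also differ in transcript length. In the order given, the measured genes had medians of 58, 56, 68, 95.5, 144 and 104 windows, beside 55 for all measured genes. Only 4 of 20 receptor-type genes, 5 of 14 ERK feedback and output genes and 7 of 16 genes of docking proteins reached the input minimum.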

How the data were processed

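RNA of GM12878 cells was fragmented, and an m6A IP library and an input library were sequenced, 1 each. Per the submitters' processing notes, TopHat 1.1.3 and build hg19 were used; for the coverage program, the annotation and any use of strand in counting, the sources used here name nothing. The coverage signal and its gene medians were deposited by the authors, scaled per library by an unstated factor. Values were whole multiples of 1 step (100% of the values below 2000 steps within 0.01 step). Read equivalents were taken at a set 36 steps per read. The commonest value was 37 steps in both libraries, so read equivalents may be slightly too high. The deposited window score is a log2 value by the authors; recomputed from the coverage it differed by at most 1.67e-14. Medians ran over all listings of a name. A listing was taken to start at exon 1 window 1. Calls, scores and exact (Clopper-Pearson) intervals of the IP to input ratio came from scipy 1.17.1, pandas 2.3.3 and numpy 2.4.6 under Python 3.11.15, and figures from matplotlib 3.10.9. Ratios are of coverage at 1 window, conditional on its total reads; PCR copies and overlapping windows are not independent, so intervals are too narrow. Strand came from a RefSeq promoter table (GRCh38.p14), used for strand only. Distances count windows of 50 nt to the inner edge of a terminal exon, or the nearer edge of an internal one. Every member is named, and from each companion list the 2 highest and the 1 lowest measured genes. Members, lists and thresholds were chosen with earlier results of these data known. The caller was run on simulated Poisson coverage with planted regions. That simulation centred on the kept listing alone and set the IP equal to the input elsewhere. It therefore does not cover the centring used here or IP raised along a whole gene. Sequences of the enriched windows were not used here. Without strand-aware counts, reads of overlapping genes on opposite strands cannot be told apart. 1 gene of the B cell marker list is not reported here.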

Additional observations from a re-analysis of the deposited data

How the results depend on the processing

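The number of members with a region stayed within 1.5 times of 14 of 24 when 0.1 or 5 was added before the logarithm (15 and 12), without centring (16), with the median of the kept listing (13), with the first listing (14), at a threshold of 1 (21) and at an input minimum of 0.5 (14 of 25). It was 8 at a threshold of 3, 8 when runs of 4 windows were asked for, and 7 of 11 at an input minimum of 5, all of which leave fewer windows or genes by construction. The share of all measured genes with a region, 44.2% in the main setting, also changed under most settings. It was 51.78% with 0.1 added, 33.92% with 5 added and 45.49% without centring. With the median of the kept listing it was 44.22%, and with the first listing 43.11%. It was 71.4% at a threshold of 1, 26.01% at a threshold of 3 and 30.95% with runs of 4 windows. At an input minimum of 0.5 it was 43.72%, and at a minimum of 5 it was 34.09%. At a threshold of 3 the peak lay in the longer terminal exon in 5 of 8 members. The median score ranged from 1.87 with 5 added to 2.67 with 0.1 added, beside 1.33 and 2.19 over all measured genes. Calls of single members changed as follows: DUSP18 was gained with 0.1 added, DUSP11 and PTPN23 were lost with 5 added, and DUSP10 was lost with the median of the kept listing. Without centring DUSP7, DUSP14, DUSP18 and PTPN18 were gained, and DUSP11 and PTPN23 were lost. Input levels also depended on the measure. With the median over all windows in place of the mean, 23 members reached the input minimum. By that median DUSP4 stood at 4.05, PTPN2 at 1.03 and DUSP18, below the minimum, at 0.863. With the first listing kept, the input mean of PTPN2 was 4.60 in place of 2.57. No paired analysis was possible because each group has 1 library. Depth limits the members below the input minimum, where adding 1 shrinks scores toward 0.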

Other observations

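Family names that the rule leaves out were DUSP5P, PTPN20A, PTPN20B and PTPN20C. The pseudogene DUSP5P had a region and a score of 2.49, with 22.4 in the IP and 3.10 in the input at its highest window; whether these reads come from DUSP5 was not tested. The PTPN20 names had input means below 0.01, with identical values for PTPN20A and PTPN20B.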
